A study of Mus musculus with 6 samples.

Results

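The genes described here are the protein-coding genes of an interval of mouse chromosome 11, from 43 to 50 Mb (GRCm38), measured in liver RNA of fasted mice. They were chosen by position: GENCODE M21 places 76 protein-coding genes with a start in this interval, of 55536 genes in the files. The interval itself was picked because Pttg1, Havcr1, Havcr2 and Btnl9, which lie in it, differed between the genotypes in these same libraries. The fold changes below are therefore a description of the interval and no independent evidence about it.

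The study compared livers of CREBH-KO mice with livers of WT mice, both after an overnight fast of 14 h, with 3 libraries per genotype. CREBH, encoded by Creb3l3 on chromosome 10, is a liver transcription factor anchored in the endoplasmic reticulum membrane until proteases cut it free, and it acts on fasting metabolism. For CREBH-KO 2 and 3 the labels record the loss of a file of the first reads. The knockout allele, the strain background, sex and age of the mice are not given in the labels, which call the samples independent without naming an animal for each, so the tests measure the spread between these samples. Counts per gene carry no information on alleles, and sequence differences between the mice were not analysed here.

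Several families share this interval. Pttg1 encodes securin, which holds back the protease separase until sister chromatids may part. The TIM receptors (Havcr1, Havcr2, Timd2 and Timd4) are cell surface proteins with an immunoglobulin-like domain. Members of the family are known to bind phosphatidylserine on dying cells, to restrain T cells or to take up ferritin. In mouse genetics this TIM cluster is known from the Tapr locus, where inbred strains carry different forms of the receptors. The distal part holds interferon-inducible GTPases, a cluster of olfactory receptors, TRIM ubiquitin ligases and the butyrophilin-like gene Btnl9.

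The stretches before a RefSeq start of the 4 genes that drew attention to the interval are shown, since these are the genes with the steepest differences apart from Olfr1393. They come from the RefSeq promoter records (GRCm38.p6), 5′ to 3′ on the strand of the gene, limited to bases that no annotated exon covers; this leaves 55 bases for Pttg1, 88 for Havcr1 and 180 for Btnl9. The RefSeq start lies inside the GENCODE gene for Pttg1 (43425981, against 43426251 in GENCODE) and Havcr1 (46740223, against 46735080 in GENCODE), so these stretches are within the bounds given for those genes below. Capitals mark TGACG, the core of the site bound by CREB and ATF factors, searched on both strands.
Pttg1 (chr11:43426119-43426173, minus strand): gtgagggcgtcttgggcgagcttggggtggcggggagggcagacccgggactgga
Havcr2 (chr11:46454681-46454930, plus strand): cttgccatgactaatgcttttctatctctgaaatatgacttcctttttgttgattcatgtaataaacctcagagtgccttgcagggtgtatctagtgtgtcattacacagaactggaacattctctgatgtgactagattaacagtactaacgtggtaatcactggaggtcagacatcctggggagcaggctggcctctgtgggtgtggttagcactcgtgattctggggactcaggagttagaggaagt
Havcr1 (chr11:46739973-46740060, plus strand): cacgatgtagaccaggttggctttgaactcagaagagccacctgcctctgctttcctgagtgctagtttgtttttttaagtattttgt
Btnl9 (chr11:49187160-49187339, minus strand): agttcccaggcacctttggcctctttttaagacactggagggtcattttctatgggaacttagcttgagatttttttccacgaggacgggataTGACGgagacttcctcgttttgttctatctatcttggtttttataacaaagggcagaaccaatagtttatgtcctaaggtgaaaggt
Among the stretches as printed, that of Btnl9 holds TGACG, once. Havcr1 has 3 RefSeq records, and another of them (chr11:46750261-46750560) also holds it. The Pttg1 stretch is rich in G and C (72.7%), against 44.8% in the Havcr2 stretch, 43.2% in that of Havcr1 and 41.7% in that of Btnl9.

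RefSeq records of 300 bases (250 before and 50 after a start) were found for 65 of the 76 genes, 81 records in all. TGACG occurred in 17 of these 81 and in 20.8% of all 32851 records of the genome table. It occurred in 14 of 49 records of members that passed the filter on low counts and in 5 of 19 records of members called changed, those of Btnl9, Cyfip2, Ebf1, Havcr1 and Ublcp1. The full palindrome TGACGTCA, which contains TGACG, occurred in 1 of the 81 and in 1.79% of all records. CCACG, a core shared by elements of the unfolded protein response, occurred in 24 of the 81 (29.6%) and in 32.8% of all records. A match says only that these letters are present.

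Gene-assigned reads numbered 28106243 to 34146918 in the CREBH-KO libraries and 31679996 to 39288819 in the WT libraries. Levels are given as CPM, read counts per megaread of effective library size. Creb3l3 stood at 45.0 to 57.4 CPM in CREBH-KO libraries, against 467 to 496 CPM in WT libraries, so the libraries match their labels at this gene. Of the hepatocyte markers listed, all 8 passed the filter on low counts, Serpina1e rose and Cyp2e1 fell, with summed levels of 80031 to 88904 CPM in CREBH-KO and 72593 to 84520 CPM in WT. In whole liver, fewer cells of a type and less RNA per cell cannot be told apart.

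Of the 76 genes, 39 passed the filter on low counts, 18 had some counts but did not pass, and 19 had no count in any library. Apart from olfactory receptors, those below the filter include Il12b, a cytokine subunit of immune cells, and those without a count include Fabp6, an ileal bile acid carrier. Among the 39 tested, 12 were called changed, 6 higher and 6 lower in CREBH-KO, at an adjusted p under 0.05 in edgeR's quasi-likelihood test over all genes. The share called was 10.4% of all 15589 genes tested and 11.7% of the protein-coding ones, 3.91% of all genes and 4.31% of the protein-coding ones being called higher, and 6.46% and 7.39% lower. Since the interval was picked from this contrast, its own share of 30.8% is a description. The median log2 fold change (CREBH-KO over WT) of the tested members was 0.08, beside 0.02 over all genes tested. The summed level of the members was nearly the same in each library, at 886 to 888 CPM in CREBH-KO and 895 to 914 CPM in WT. Rack1 alone gave 253 to 296 CPM of this sum, while Havcr1 reached at most 2.87 CPM and Btnl9 at most 6.01 CPM. The sum therefore says little about the members at low levels.

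**Figure D1:**
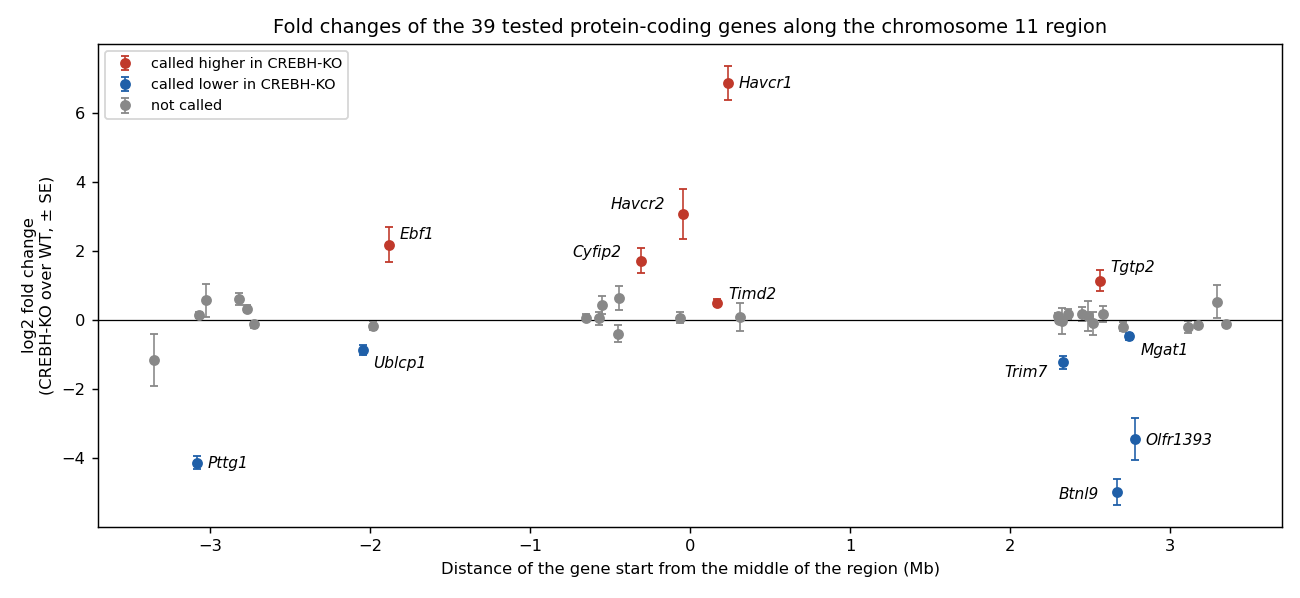
Log2 fold change (CREBH-KO over WT) with its SE for the 39 tested genes, against the distance of the gene start from the middle of the region in Mb. Red marks the 6 genes called higher in CREBH-KO, blue the 6 called lower and grey the 27 not called; Havcr1, Pttg1 and Btnl9 lie farthest from 0, with uncalled genes between them.

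Pttg1 (chr11:43420250-43426251, minus strand), near the proximal border, fell in CREBH-KO. It had 1.73, 1.18 and 2.14 CPM in CREBH-KO 1, 2 and 3, against 32.5, 28.6 and 27.5 CPM in WT 1, 2 and 3. The highest CREBH-KO library thus lay far below the lowest WT library. This was 17.4-fold lower, a log2 fold change of -4.12 ± 0.19 (SE, n = 3 each). The nearest tested gene, the splicing factor gene Slu7, starts 7.49 kb away and had a log2 fold change of 0.15 ± 0.09. On the other side lies the lipid flippase gene Atp10b, whose libraries overlapped between the genotypes.

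The genes of anaphase and cell division listed with securin lie outside the interval, most of them on other chromosomes. Separase (Espl1) did not pass the filter and had 0.141 ± 0.0849 CPM in CREBH-KO and 0.231 ± 0.181 CPM in WT (SD, n = 3). Of 19 tested genes of anaphase, cohesin and cell division, Smc3, a cohesin subunit, rose (log2 fold change 0.41 ± 0.09) and the other 18 were not called. The median of these genes was 0.05. The summed level of the list was 246 to 252 CPM in CREBH-KO, against 235 to 249 CPM in WT. Most of this sum came from cohesin subunits, so it says little about the genes of mitosis. The proliferation marker Mki67 had 0.778 ± 0.346 CPM in CREBH-KO and 0.682 ± 0.0301 CPM in WT. Whether cell division played a part in the difference of Pttg1 was not tested.

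Further along, 3 of the 4 TIM receptor genes were called higher in CREBH-KO, and the fourth was not called. Havcr1 (chr11:46735080-46779578, plus strand) encodes TIM-1, a phosphatidylserine receptor that injured kidney tubules are known to make. Its counts were 91, 85 and 88 in CREBH-KO 1, 2 and 3, against 1, 1 and 0 in WT 1, 2 and 3. On the CPM scale the CREBH-KO libraries held 2.74 ± 0.114 (SD, n = 3). Scaled by effective library size, the ratio of summed counts was 139, with a 95% exact interval of 38.05 to 1152 that covers counting error only. The CREBH-KO libraries were close to each other and the WT libraries near 0.

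Of 6 markers of the kidney tubule, 5 were at or near 0. Slc34a1, Slc12a1, Aqp2 and Kap had no count in any library, and Umod had 0.0259 CPM in WT 1 and none elsewhere. The endocytic receptor gene Lrp2 was the exception, with 0.937 to 3.21 CPM in CREBH-KO, against 0.325 to 0.569 CPM in WT (log2 fold change 1.99 ± 0.49, called by edgeR and DESeq2 and not by limma-voom). Its part in the difference of Havcr1 was not tested.

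Havcr2 (chr11:46454935-46481255, plus strand) encodes TIM-3, an inhibitory receptor of T cells and myeloid cells. It was near the limit of detection, with 11, 12 and 12 counts in CREBH-KO 1, 2 and 3, against 0, 2 and 2 counts in WT 1, 2 and 3. The ratio of summed counts, scaled in the same way, was 9.20 (95% exact interval 3.29 to 35.6, counting error only). Every CREBH-KO library lay above every WT library, but the call of Havcr2 was lost when any 1 of the 6 libraries was left out, where its log2 fold change ranged from 2.43 to 3.50. Markers of T and NK cells summed to 3.83 to 6.62 CPM in CREBH-KO and 2.64 to 6.37 CPM in WT, and those of neutrophils and monocytes to 2.60 to 3.01 CPM in CREBH-KO and 0.782 to 1.94 CPM in WT. Their part in the counts of Havcr2 was not tested.

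Timd2 (chr11:46668960-46707061, minus strand), in mouse a receptor for heavy-chain ferritin, lies between Havcr2 and Havcr1 and had the highest level per length of these receptors. It had 69.6, 62.2 and 75.5 CPM in CREBH-KO 1, 2 and 3, against 47.2, 54.1 and 44.5 CPM in WT 1, 2 and 3. The groups did not overlap, although the gap between them was narrow. Its log2 fold change was 0.51 ± 0.10 and ranged from 0.44 to 0.59 with 1 library left out, the call being lost without WT 3 or CREBH-KO 3.

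Timd4, the phosphatidylserine receptor TIM-4 of resident macrophages, starts 31.2 kb beyond Havcr1 and had 0.820, 1.76 and 2.05 CPM in CREBH-KO 1, 2 and 3, against 1.09, 1.19 and 2.11 CPM in WT 1, 2 and 3. Its groups overlapped (log2 fold change 0.08 ± 0.40). Kupffer cell markers summed to 124 to 150 CPM in CREBH-KO and 110 to 236 CPM in WT. Of 12 such markers edgeR called Cd163, which fell; DESeq2 called Cd163 and Vsig4, whose log2 fold change was -0.79 in edgeR. Other genes of phosphatidylserine recognition and uptake went both ways: of 15 tested, the bridging protein Mfge8 rose (0.78 ± 0.20) and the scavenger receptor Cd36 (-0.66 ± 0.12) and the ligand Gas6 (-0.43 ± 0.11) fell, on the log2 scale. Among 6 ligands and partners of TIM-3, the galectin-9 gene Lgals9 had 396 ± 17.6 CPM in CREBH-KO and 340 ± 27.0 CPM in WT. None of these 6 was called.

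Proximal to the TIM cluster, Ublcp1 fell and Ebf1 and Cyfip2 rose. Ublcp1 (chr11:44454571-44470498, minus strand) encodes a phosphatase of the nuclear proteasome. It had 11.9, 15.0 and 12.2 CPM in CREBH-KO 1, 2 and 3, against 27.6, 21.4 and 22.1 CPM in WT 1, 2 and 3, with no overlap and a log2 fold change of -0.87 ± 0.14. Its tested neighbours Adra1b (-0.12 ± 0.11) and Rnf145 (-0.16 ± 0.12) were not called.

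Ebf1 (chr11:44617317-45008091, plus strand), a transcription factor of B cells and of stromal cells, was a low-count gene. Its counts were 21, 17 and 29 in CREBH-KO 1, 2 and 3, against 4, 3 and 8 in WT 1, 2 and 3, a log2 fold change of 2.18 ± 0.51. No CREBH-KO library came down to the level of a WT library. The call of Ebf1 held without WT 3 and was lost without any other library, with log2 fold changes of 1.94 to 2.76. B cell markers summed to 6.79 to 9.33 CPM in CREBH-KO and 3.08 to 9.40 CPM in WT, and stellate cell and fibroblast markers to 187 to 217 CPM in CREBH-KO and 138 to 168 CPM in WT. Of the 8 stromal markers only Dcn was called, and it rose (0.56 ± 0.09). Their part in the difference of Ebf1 was not tested.

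Cyfip2 (chr11:46193850-46312859, minus strand), a subunit of the WAVE complex that steers actin assembly, had 2.43, 3.14 and 4.22 CPM in CREBH-KO 1, 2 and 3, against 0.543, 1.16 and 1.30 CPM in WT 1, 2 and 3. The groups were apart, and WT 1 lay well below the other WT libraries. Its log2 fold change of 1.72 ± 0.36 lost its call without WT 2, CREBH-KO 2 or CREBH-KO 3 (1.40 to 1.95 with 1 library left out).

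**Figure D2:**
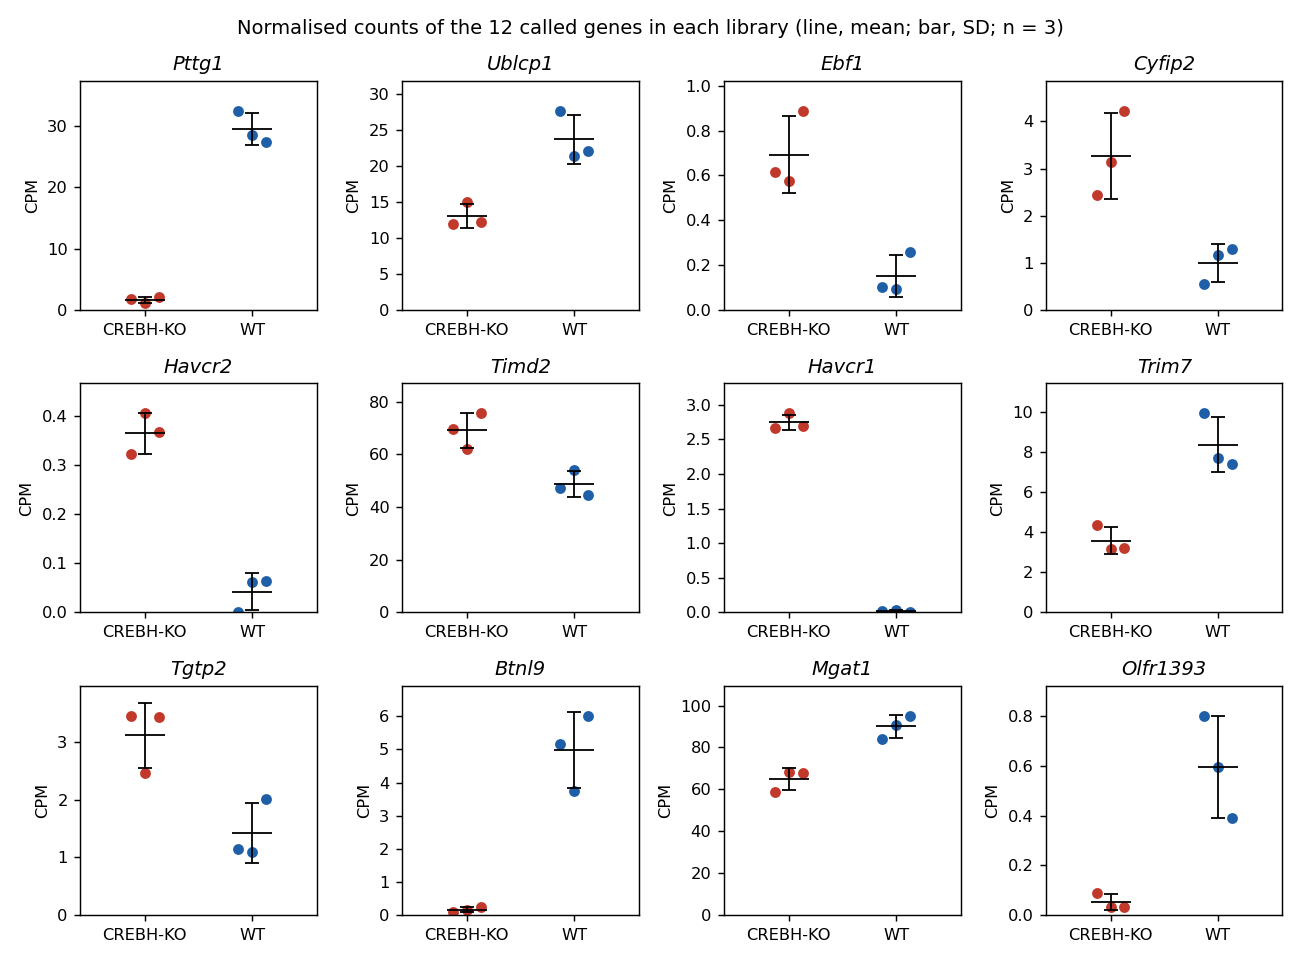
CPM of the 12 called genes in each library, CREBH-KO in red and WT in blue, with the mean as a line and the SD as a bar (n = 3). Each panel has its own scale from 0, and in every panel the groups do not overlap: Timd2 reaches 75.5 CPM, while Havcr2 stays under 0.41 CPM.

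The distal part of the interval begins after a stretch of 811 kb without a protein-coding gene, between Sgcd and Rack1. Btnl9 (chr11:49165585-49187159, minus strand), which encodes a butyrophilin-like membrane protein of the immunoglobulin superfamily, fell. It had 3, 4 and 8 counts in CREBH-KO 1, 2 and 3, against 200, 120 and 185 counts in WT 1, 2 and 3. These are 0.156 ± 0.0805 CPM in CREBH-KO and 4.98 ± 1.14 CPM in WT (SD, n = 3), 31.3-fold lower. Its neighbours were not called: the GTPase gene Ifi47 had a log2 fold change of 0.17 ± 0.22 and the zinc finger gene Zfp62, which starts 16.1 kb away, of -0.18 ± 0.13.

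The endothelial cell markers, listed because Btnl9 is known from endothelium, summed to 257 to 265 CPM in CREBH-KO, against 243 to 308 CPM in WT. Cell type lists without a call (T and NK cells, B cells, neutrophils and monocytes, endothelium) held 27 tested genes, none called by edgeR, DESeq2 or limma-voom. Of these, 5 had an unadjusted p under 0.05 in edgeR, and 4 of the 5 were endothelial markers that went both ways. Lyve1 had a log2 fold change of 1.24 ± 0.44, against -0.28 ± 0.08 for Ptprb, -0.25 ± 0.09 for Stab2 and -0.34 ± 0.14 for Clec4g. The remaining gene was Itgam, of the neutrophil and monocyte list, with a log2 fold change of 1.73 ± 0.53. It had 0.492 ± 0.107 CPM in CREBH-KO and 0.142 ± 0.0857 CPM in WT. Flt4, the receptor VEGFR-3 and itself in the interval, had 13.4, 13.2 and 15.1 CPM in CREBH-KO 1, 2 and 3, against 11.7, 16.9 and 19.2 CPM in WT 1, 2 and 3, and its groups overlapped. In the butyrophilin family outside the interval, 4 genes were tested, all at low counts, with a median log2 fold change of -0.86. All 4 lie on chromosome 17, and each had a negative log2 fold change: Btnl1 (-1.04 ± 0.69), Btnl2 (-0.20 ± 0.54), Btnl4 (-1.63 ± 0.64) and Btnl6 (-0.69 ± 0.74). CREBH-KO 2 and 3 lay below every WT library at these genes, but CREBH-KO 1 did not. It stood above every WT library at Btnl2 (1.46 CPM, against 0.720 to 1.06 CPM in WT) and Btnl6 (1.84 CPM, against 0.957 to 1.43 CPM in WT). At Btnl1 it was within the WT range (0.907 CPM), and at Btnl4 below it (0.615 CPM). Btnl1 had 0.411 ± 0.432 CPM in CREBH-KO and 0.868 ± 0.379 CPM in WT. Btnl4 had 0.269 ± 0.299 CPM in CREBH-KO and 0.859 ± 0.0804 CPM in WT. Of the TIM-3 partners and these butyrophilins together, 10 genes, none was called by edgeR, DESeq2 or limma-voom, and 2 (Lgals9 and Btnl4) had an unadjusted p under 0.05 in edgeR.

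Olfactory receptor genes make up 19 of the 76 genes, and 12 of them had no count. Olfr1393 (chr11:49278304-49282769, plus strand), 15.3 kb beyond Mgat1, was the only one to pass the filter and fell. It had 3, 1 and 1 counts in CREBH-KO 1, 2 and 3, against 31, 19 and 12 counts in WT 1, 2 and 3, 10.9-fold lower in the fit. The ratio of summed counts, WT over CREBH-KO and scaled by effective library size, was 11.8 (95% exact interval 4.79 to 37.6, counting error only). Olfr1396 (chr11:49109982-49114874, minus strand), on the other side of Btnl9 and below the filter, had no count in CREBH-KO and 19, 2 and 7 counts in WT 1, 2 and 3; with 3 counts set as the floor for the summed CREBH-KO libraries, it was at least 8.88-fold lower. WT 1 held most of these counts, and without it the bound was 4.61; without CREBH-KO 1 it was 5.73, without CREBH-KO 2 6.15 and without CREBH-KO 3 5.87, in a comparison added after the data were seen. The other receptors below the filter with counts went both ways. Summed over CREBH-KO and over WT libraries, Olfr1383 had 12 and 2 counts and Olfr1384 had 3 and 0. Olfr56 had 1 and 13, Olfr1392 had 1 and 8, and Olfr1394 had 0 and 1. Receptors of this family are similar in sequence, and how reads were shared between them is uncertain.

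Mgat1 (chr11:49244191-49263030, plus strand) encodes the enzyme that opens the way to complex N-glycans. It had 58.7, 68.2 and 67.8 CPM in CREBH-KO 1, 2 and 3, against 84.2, 90.8 and 95.1 CPM in WT 1, 2 and 3. The log2 fold change of -0.47 ± 0.09 was small next to that of Btnl9, from which it lies 57.03 kb away, but the groups did not overlap. The call was lost without WT 2 (-0.41 to -0.53 with 1 library left out).

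Among the TRIM genes, Trim7 (chr11:48826140-48852209, plus strand), a ubiquitin ligase that binds glycogenin, fell and its neighbour Trim41 was not called. Trim7 had 4.36, 3.18 and 3.24 CPM in CREBH-KO 1, 2 and 3, against 9.96, 7.73 and 7.44 CPM in WT 1, 2 and 3 (log2 fold change -1.22 ± 0.19). No library of either genotype came near the other group. Other annotated genes cover 8.31% of its exonic bases. Trim41 stood at 45.1 ± 2.93 CPM in CREBH-KO and 44.7 ± 0.966 CPM in WT.

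Of 5 tested interferon-inducible GTPases of the interval, Tgtp2 (chr11:49057194-49064206, minus strand) was called higher. Its counts were 118, 73 and 112 in CREBH-KO 1, 2 and 3, against 44, 35 and 62 in WT 1, 2 and 3, a log2 fold change of 1.14 ± 0.30. The nearest libraries of the groups were only slightly apart, and the call held without WT 3 but not without any other library (0.99 to 1.48). Tgtp1 is a near-identical copy and had 2.26 ± 0.677 CPM in CREBH-KO and 2.09 ± 1.32 CPM in WT; how reads divide between these copies is uncertain. Irgm1, the GTPase gene of the interval with the highest level per length and an autophagy regulator, had 42.9, 29.3 and 42.3 CPM in CREBH-KO 1, 2 and 3, against 32.6, 35.3 and 32.7 CPM in WT 1, 2 and 3, and overlapped. Of 22 interferon-induced genes at other loci, Ifit3 (0.91 ± 0.19) and Isg15 (1.09 ± 0.23) rose on the log2 scale, and the median was 0.35. DESeq2 called 5 of the 22, adding Usp18, Ifit1 and Ifit2.

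The remaining groups held 16 tested members, none of which was called by edgeR, DESeq2 or limma-voom. Of them 1, Ttc1, had an unadjusted p under 0.05 in edgeR. Ttc1 was called without WT 1 (log2 fold change 0.40) and with scaling by library size alone (0.41). Rack1, a scaffold of the ribosome, had the highest level per length in the interval and stood at 278, 296 and 276 CPM in CREBH-KO 1, 2 and 3, against 253, 255 and 274 CPM in WT 1, 2 and 3. Its groups did not overlap, by a narrow margin (log2 fold change 0.12 ± 0.08). Adra1b, an adrenergic receptor of hepatocytes, had 41.2, 41.4 and 50.6 CPM in CREBH-KO 1, 2 and 3, against 53.0, 47.5 and 44.6 CPM in WT 1, 2 and 3. Clint1, a clathrin interactor, had 79.97, 70.8 and 57.9 CPM in CREBH-KO 1, 2 and 3, against 65.2, 67.5 and 65.0 CPM in WT 1, 2 and 3. Psme2b, a copy of a proteasome activator gene, had 4.04, 5.27 and 3.64 CPM in CREBH-KO 1, 2 and 3, against 3.85, 4.07 and 3.48 CPM in WT 1, 2 and 3. The groups of Adra1b, Clint1 and Psme2b overlapped. Over all 27 tested members that were not called, log2 fold changes lay between -1.15 and 0.64, and 22 of them were within 0.5 of 0 on either side.

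All 12 called genes had groups that did not overlap, and so did 6 uncalled ones (Pwwp2a, Ttc1, Adam19, Rack1, Cnot6 and Mapk9). That makes 18 of 39, where 30.6% of all genes tested and 33% of the protein-coding ones did not overlap. Pwwp2a, a binder of the histone variant H2A.Z, was the nearest to a call, with 15.0, 12.8 and 16.7 CPM in CREBH-KO 1, 2 and 3, against 11.3, 7.48 and 10.2 CPM in WT 1, 2 and 3 (log2 fold change 0.62 ± 0.17). It was called by DESeq2, by limma-voom and by edgeR without WT 1. It was also called by edgeR with library size alone, without a filter, with the stricter filter and in the robust fit.

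**Figure D3:**
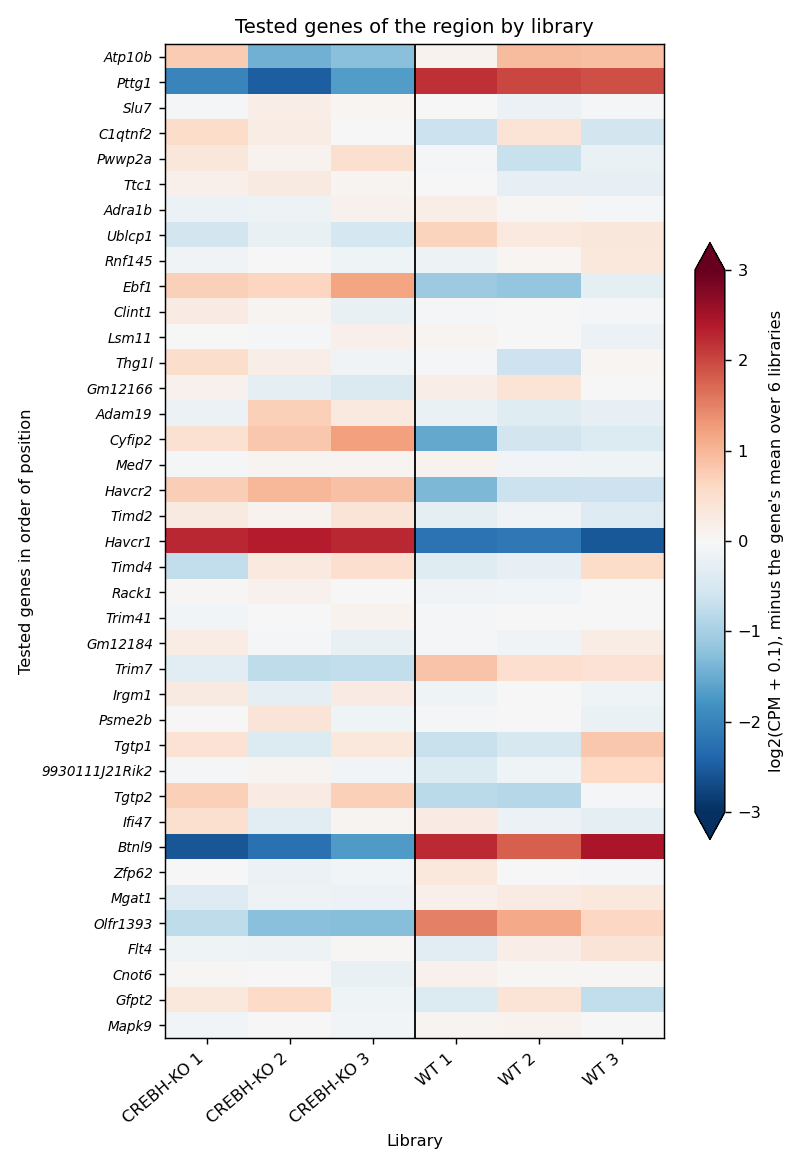
The 39 tested genes in order of position (rows) in each library (columns, CREBH-KO left of WT). Colour is log2(CPM + 0.1) minus the mean of the gene over the 6 libraries, red above and blue below it. Called genes such as Pttg1, Havcr1 and Btnl9 stand beside rows with little colour, among them Slu7, Rack1 and Zfp62.

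Compared per length of annotated exons (CPM per kb), Rack1 led in both genotypes, at 55.3 in CREBH-KO and 50.9 in WT. Pttg1 held rank 24 of 39 in CREBH-KO (0.842 CPM per kb) and rank 3 in WT (14.8 CPM per kb). Timd2 ranked 2 in CREBH-KO (19.9 CPM per kb) and 5 in WT (14.0 CPM per kb), and Havcr1 ranked 21 in CREBH-KO (1.19 CPM per kb) and last in WT. Mgat1 stayed among the 3 most abundant, at 13.7 CPM per kb in CREBH-KO and 19.0 CPM per kb in WT. Of the 22 members with a mean over all libraries of at most 10 CPM, 8 were called, and of the 17 above it, 4. Over all genes tested these shares were 6.06% and 14.8%. The called members at this low level include Havcr1, Havcr2, Ebf1, Btnl9 and Olfr1393, which passed the filter only through the genotype where they are high. Havcr1, Havcr2 and Btnl9 were also among the genes from which the interval was picked, so the count is a description.

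Along the chromosome the called genes did not form a block of uniform direction. From the proximal end, Pttg1 and Ublcp1 fell. The next 5 called genes (Ebf1, Cyfip2, Havcr2, Timd2 and Havcr1) rose, and after the gap Trim7 fell, Tgtp2 rose, and Btnl9, Mgat1 and Olfr1393 fell. Uncalled genes lay among them: between Ebf1 and Havcr1 there were 6 tested genes, with log2 fold changes from -0.39 (Gm12166) to 0.64 (Adam19). Gaps from a called gene to the next ranged from 15.3 kb (Mgat1 to Olfr1393) to 2047 kb (Havcr1 to Trim7).

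At the proximal border, the genes just inside were Gm9972, without a count, Atp10b and Pttg1. Atp10b had 0.673, 0.0676 and 0.0918 CPM in CREBH-KO 1, 2 and 3, against 0.388, 0.782 and 0.748 CPM in WT 1, 2 and 3. CREBH-KO 1 stood apart from the other CREBH-KO libraries at this gene, and without it Atp10b was called lower (log2 fold change -2.93). At the distal end the last genes inside were Gfpt2 (log2 fold change 0.54), Mapk9 (-0.12) and Rasgef1c, which had no count. Rnf130 (-0.18), Tbc1d9b (-0.11) and Mrnip (0.26) follow outside.

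Elsewhere on chromosome 11, 118 of 1011 tested protein-coding genes were called (11.7%), 43 higher and 75 lower. In windows of 7 Mb aligned with the interval the share ranged from 0%, in a window with 3 tested genes, to 23.1%, in the last window with 52 tested genes. The adjoining window on the distal side held 9 called genes of 68. A fitted change of at least 8-fold was found for 5 genes of the interval (Pttg1, Havcr2, Havcr1, Btnl9 and Olfr1393), whereas elsewhere on the chromosome the largest absolute log2 fold change was 2.75. Over all genes tested, 0.391% were called with a change of at least 8-fold (0.39% of the protein-coding ones). With these genes part of the reason the interval was chosen, the difference between it and the other windows is a description.

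**Figure D4:**
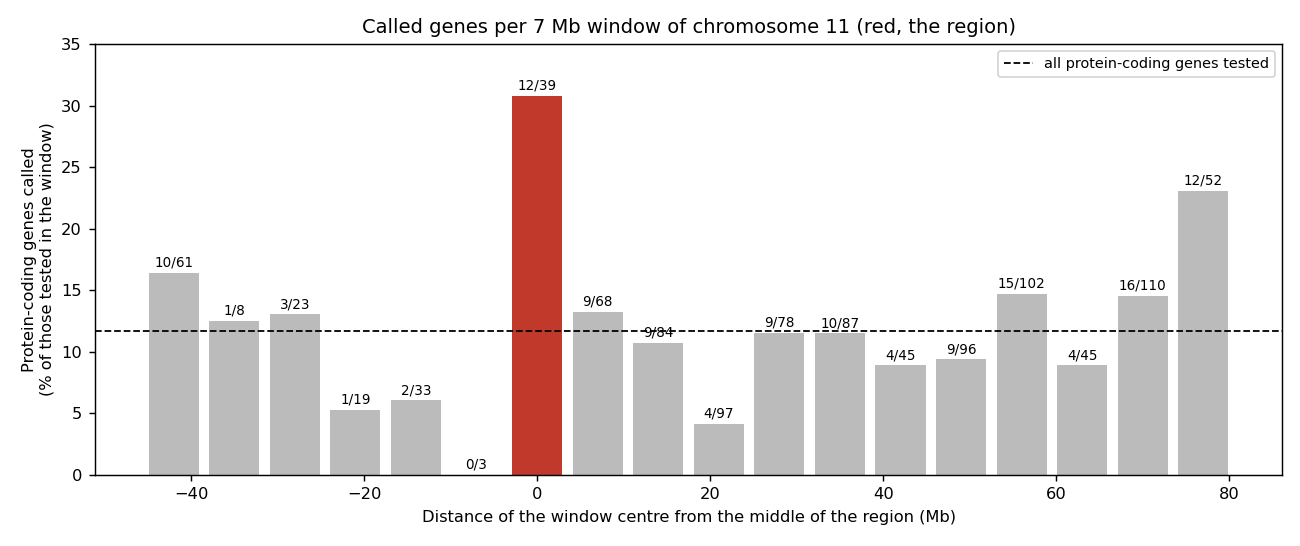
Share of tested protein-coding genes that were called, in percent, in 7 Mb windows of chromosome 11, with called over tested genes printed on each bar. The region is the red bar at 0 (12 of 39); the dashed line is the 11.7% called among all protein-coding genes tested, and some windows hold few genes.

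The count of called members depended on which libraries entered. It was 7 without WT 2 or CREBH-KO 3, 8 without CREBH-KO 2 and 10 without WT 3, all among the 12. It was 10 without CREBH-KO 1, with 9 of the 12 kept and Atp10b added. It was 11 without WT 1, with 9 of the 12 kept and Pwwp2a and Ttc1 added. It was 3 (Pttg1, Havcr1 and Btnl9) with CREBH-KO 1 alone against WT, where the whole table gave 228 calls and the lone library was taken to vary as the WT libraries do.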

How the data were processed

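The authors deposited 1 table of raw read counts per gene for each library; the sample titles in the labels name HTSeq as the counter. How strand was set, which aligner was used and on which genome build were not given in the sources used here. GENCODE M21 held each of the 55536 gene identifiers; this annotation (GRCm38) supplied names and positions. Reads in HTSeq's summary lines, 27.4% to 31.2% of each library, were left out. Since reads aligned to several places are among them, near-identical copies are uncertain, as are overlapping and antisense genes.

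Replicate numbers follow accession order and only name libraries. The tests ran in R (4.3.3) through edgeR (4.0.16): filterByExpr (minimum count 10, total 15), TMM factors (0.967 to 1.05) and the quasi-likelihood test of CREBH-KO against WT with Benjamini-Hochberg adjustment over 15589 genes. The procedure was tested on counts simulated from the means and spread of these data. Changes were placed only in genes above a set level, so that test does not cover calls such as Havcr2, Ebf1 and Olfr1393. SE is the absolute log2 fold change over the square root of F. Exact intervals are Clopper-Pearson at 95%. Chi-square over its degrees of freedom was 18.8 or more for each pair of replicates. Alternatives used DESeq2 1.42.0, limma 3.58.1, other scalings and filters, and fewer libraries.

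The members and gene lists were chosen with earlier results of these data known. Named genes are the 4 that drew attention to the interval, every other called member, the member with the highest mean count of each group without a call, the genes at the borders (those just outside the proximal one are not reported here), and, of the pathway lists, at most 4 called genes each. Genes such as Pwwp2a, Timd4, Flt4, Espl1, Mki67 and Lgals9 were added after their values were seen. So were Olfr1396 and the other olfactory receptors below the filter, the butyrophilins outside the interval and the marker genes named.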

Additional observations from a re-analysis of the deposited data

How the results depend on the processing

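All 12 called members kept their direction under every alternative that gave a value, and Pttg1, Havcr1 and Btnl9 kept their call in all; 31 of 163 values of single genes lost it, each with fewer libraries. Leaving out 1 library gave 1 to 5 members called higher, 5 to 7 called lower, a member median of 0.043 to 0.10 and 658 to 1806 calls over all genes. CREBH-KO 1 alone against WT gave 1 higher, 2 lower, a median of 0.021 and 228 calls. Without a filter 2456 genes were called. The stricter filter (at least 50 counts in 3 libraries) left Ebf1, Havcr2 and Olfr1393 untested, with 5 members called higher and 5 lower. Scaling by library size alone moved the member median to 0.15 (0.10 over all genes). The window of 42 to 51 Mb, members with under 20% exonic overlap, or all biotypes changed neither count by more than 1. DESeq2 gave no adjusted p for Havcr2 and Olfr1393. No paired analysis was possible because the labels give no replicate numbers shared by the groups. Of the called members, Havcr2, Ebf1 and Olfr1393 rest on few counts, and 37 members were not tested because they did not pass the filter.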

Other observations

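The interval also holds 69 annotated genes of other kinds, such as pseudogenes, antisense and long non-coding RNAs, of which 5 passed the filter on low counts. Their log2 fold changes lay between -0.90 and 0.41. The processed pseudogene Gm12174, which lies between Timd2 and Havcr1, had 3.40, 2.64 and 3.09 CPM in CREBH-KO 1, 2 and 3, against 2.51, 2.66 and 2.76 CPM in WT 1, 2 and 3, so its groups overlapped.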
